A study of Mus musculus with 15 samples.

Results

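Expression of 44 mouse genes of the G1/S transition and DNA replication was followed through IL-3 stimulation of Ba/F3-beta cells, with and without knockdown of Stat5a and Stat5b. The genes were taken from a list of names: cyclins, kinases and E2F factors that start S phase, and the proteins that license, open and copy replication origins. All probe sets annotated to a listed gene were collected, 80 in all. After a floor on low signals 37 genes kept a value, from 40 probe sets, out of 8683 genes with a value on the arrays.

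Ba/F3 is a mouse haematopoietic cell line that needs IL-3 to survive and divide, and is usually described as pro-B. The labels name 5 conditions: Stat5 siRNA, directed at both Stat5a and Stat5b, at 30 min and at 2 h of IL-3, control siRNA (a scrambled sequence) at the same times, and control siRNA without IL-3. All cells were thus transfected and of 1 line, and the labels name no separate cultures. None of the 15 arrays was of unstimulated cells with Stat5 siRNA. Each condition was hybridised to 1 array of each of 3 Affymetrix designs, U74A, U74B and U74C, which carry different probe sets. There was therefore no replicate of any condition, no test was possible, and every difference given is one between arrays whose number limits the precision.

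Before a cell can copy its DNA, the origin recognition complex, Cdc6 and Cdt1 load the MCM2-7 helicase onto origins in G1. Cyclin E with Cdk2, and the Cdc7-Dbf4 kinase, then switch the loaded helicase on, with Cdc45 and the GINS complex as its partners. Polymerase alpha with primase starts each strand, the RFC complex loads the sliding clamp PCNA, RPA coats single-stranded DNA, and ribonucleotide reductase and thymidine kinase supply nucleotides. E2F factors drive the transcription of most of these genes as cells enter S phase, and in IL-3-dependent cells the cytokine is what keeps the cycle running.

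A value here is a MAS5 signal, a linear intensity that the authors had scaled to the same trimmed mean on every array, so it shows a transcript relative to the rest of its array. A floor was set at a signal of 119.9: a comparison used a probe set if either of its arrays reached the floor, and a signal under the floor was raised to it. A gene is said to have fallen or risen when its ratio passed 1.5-fold, which is 0.58 on the log2 scale. This is a selection by size and not a test. Pairs of probe sets of 1 gene on U74A, where 32 of the 37 genes were read, gave an SD of 0.24 for a single log2 ratio of 2 h over unstimulated cells. That spread holds differences between probes on the same arrays and leaves out differences between cultures.

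As a check of the labels, the brighter Stat5a probe set in Stat5 siRNA cells was at 50.6% of control at 30 min and 53.6% at 2 h, and a second one at 47.6% and 38.1%. The Stat5b probe set on U74B had a signal of 536 unstimulated, 166 with Stat5 siRNA and 499 with control siRNA at 30 min, and 126 with Stat5 siRNA and 177 with control siRNA at 2 h, so the control array was itself low at 2 h and the knockdown there read as 71.3% of control. The U74A probe set of Stat5b stayed under the floor. Of the pro-B markers looked for, Cd79b alone of 11 on the arrays reached the floor, with a highest signal of 162, and Vpreb1, Igll1, Pax5, Ebf1, Rag1 and Cd79a stayed under it. Of the IL-3 receptor subunits Csf2rb was bright, between 5446 and 8661, as was Csf2rb2, between 1619 and 2689. Il3ra was just over the floor, between 126 and 165. None of 6 T cell or 9 myeloid and mast markers reached the floor, while Epcam, Cdh1 and Col1a2 did among 7 fibroblast and epithelial ones. Arrays of 1 design correlated between 0.893 and 0.977. The lowest values, 0.893, 0.898 and 0.908, were those of the U74B array of control siRNA at 2 h with the 3 U74B arrays of earlier times, and 30 of the 37 genes were read on U74A alone. With U74A only, chosen after seeing the data, the members' median at 2 h over unstimulated cells was -0.51. In all arrays the 3' to 5' signal ratio of actin lay between 1.0 and 1.19.

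The replication genes were lower after 2 h of IL-3 and not after 30 min. At 2 h in control siRNA cells 12 of 37 measured genes had fallen and none had risen, where 8.29% of all genes fell and 7.90% rose. Among genes with a probe set on U74A the share that fell was 5.34%. The median log2 ratio was -0.50, a signal at 0.706 of that in unstimulated cells, against -0.03 for all 8267 genes, and 32 of the 37 ratios were below 0 (86.5%, against 53.9% of all genes). At 30 min 0 of 36 measured members had fallen (2.37% of all genes) and 0 had risen (2.94%), with a median of 0.05. Both comparisons use the unstimulated arrays. In RNA from a whole culture, fewer cells in S phase and less of these mRNAs per cell cannot be told apart.

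**Figure D1:**
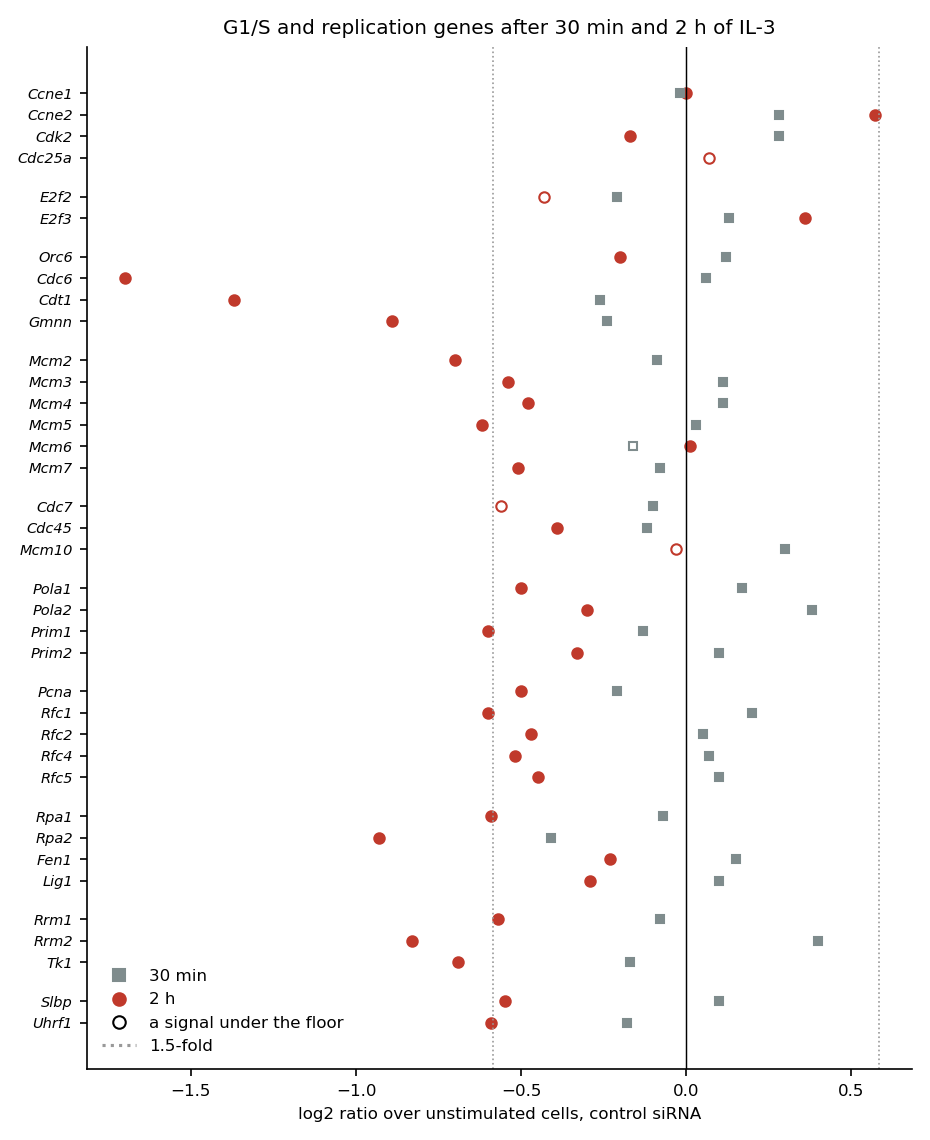
Log2 ratio of each of the 37 measured genes over unstimulated cells in control siRNA cells (horizontal axis), after 30 min (squares) and 2 h (circles) of IL-3, with genes grouped by role down the page. Open symbols have a signal under the floor and dotted lines mark 1.5-fold. The 2 h values lie left of 0 for 32 genes, furthest for Cdc6 at -1.70, while all 30 min values lie between -0.41 and 0.40.

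Past 2-fold at 2 h were Cdc6 and Cdt1, where 1.62% of all genes were 2-fold lower. Those just past 1.5-fold were Rfc1 (-0.60), Rpa1 (-0.59) and Uhrf1 (-0.59), and those just short of it Rrm1 (-0.57) and Slbp (-0.55). The distance between these genes is smaller than the SD of a single ratio. Cdc7 had -0.56 against the floor, which is a bound, so whether it passed 1.5-fold cannot be told.

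Promoter sequences of 4 members are given to set what the promoters hold beside the change. The RefSeq table of the GRCm38.p6 build has a window of 300 bases, from 250 before to 50 after the start, for 38 of the 44 members, 47 windows in all. They were searched on both strands for the E2F words TTTCCCGC, TTTGGCGC, TTTCGCGC and TTTGCCGC, which can overlap each other. Of the 47 windows 15 held one (31.9%), each in a different gene, against 2.26% of all 32851 windows. Of windows of the other S phase genes 37.7% held one, and 0 of 27 windows of G2/M genes did. In the sequences, written 5′ to 3′ along the gene, capitals mark these words. Cdc6 (chr11:98907901-98908200, + strand) and Cdt1 (chr8:122567765-122568064, + strand) had the largest ratios, Mcm5 (chr8:75109259-75109558, + strand) stands for the helicase and holds overlapping words, and Rrm2 (chr12:24708004-24708303, + strand) shows a large change with none of the 4 words in its window.
Cdc6: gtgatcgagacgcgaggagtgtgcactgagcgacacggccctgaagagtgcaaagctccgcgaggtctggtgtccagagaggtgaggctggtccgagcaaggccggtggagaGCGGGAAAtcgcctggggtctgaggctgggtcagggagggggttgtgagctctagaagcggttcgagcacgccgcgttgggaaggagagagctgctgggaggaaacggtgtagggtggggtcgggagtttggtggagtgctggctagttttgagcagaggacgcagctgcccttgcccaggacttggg
Cdt1: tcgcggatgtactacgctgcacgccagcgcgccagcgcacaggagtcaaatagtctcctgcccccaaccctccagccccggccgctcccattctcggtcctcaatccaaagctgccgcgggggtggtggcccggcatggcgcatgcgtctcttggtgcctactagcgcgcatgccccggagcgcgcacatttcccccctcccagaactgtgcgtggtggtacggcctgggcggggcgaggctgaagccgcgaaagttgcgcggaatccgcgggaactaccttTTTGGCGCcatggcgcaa
Mcm5: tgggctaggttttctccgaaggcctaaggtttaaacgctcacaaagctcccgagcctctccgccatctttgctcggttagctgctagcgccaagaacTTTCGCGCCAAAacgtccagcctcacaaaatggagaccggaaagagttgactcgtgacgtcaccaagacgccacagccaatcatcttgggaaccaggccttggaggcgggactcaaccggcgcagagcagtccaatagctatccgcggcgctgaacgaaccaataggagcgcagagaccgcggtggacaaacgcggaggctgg
Rrm2: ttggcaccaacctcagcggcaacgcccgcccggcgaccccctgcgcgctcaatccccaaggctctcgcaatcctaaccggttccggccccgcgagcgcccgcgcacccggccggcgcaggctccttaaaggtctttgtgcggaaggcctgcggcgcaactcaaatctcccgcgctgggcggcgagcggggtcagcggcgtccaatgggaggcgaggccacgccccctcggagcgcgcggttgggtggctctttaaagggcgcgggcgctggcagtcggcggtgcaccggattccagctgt

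The Cdc6 word began at position -138 and the Cdt1 word at position 32, counted from the annotated start as 0, and those of Mcm5 at -153 and -149. Members with an E2F word had a median ratio of -0.50 over unstimulated cells at 2 h (13 genes, between -1.70 and 0.36) and those without one -0.55 (19 genes, between -0.93 and 0.00). Past 1.5-fold were 4 of the 13 with a word and 7 of the 19 without one. E2f3 and Cdk2 were among those that held a word and did not fall. The STAT word TTCNNNGAA was in 4 of the 47 windows (8.51%), those of Cdc45, Cdc7, Lig1 and Mcm5, against 8.30% of all windows. CCAAT was in 61.7% of the members' windows, in 85.2% of those of G2/M genes and in 37.4% of all. A match is a run of letters and shows no binding.

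Origin licensing held the largest changes. Cdc6, an ATPase that loads the MCM helicase together with the origin recognition complex, had a signal of 429 in unstimulated control siRNA cells, of 472 with Stat5 siRNA and 445 with control siRNA at 30 min, and of 160 with Stat5 siRNA and 132 with control siRNA at 2 h. Both 2 h arrays were low and the other 3 high. The signal after 2 h of IL-3 was 3.25-fold lower than unstimulated. Cdt1, which brings the helicase to the origin, had 782 unstimulated, 733 with Stat5 siRNA and 654 with control siRNA at 30 min, and 401 with Stat5 siRNA and 303 with control siRNA at 2 h, where it was 2.58-fold lower than unstimulated with control siRNA. Again both 2 h arrays lay below the other 3.

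Gmnn, geminin, the inhibitor of Cdt1, moved the same way as Cdt1 at the level of mRNA. Its signal was 395 unstimulated, 380 with Stat5 siRNA and 335 with control siRNA at 30 min, and 234 with Stat5 siRNA and 214 with control siRNA at 2 h. Both 2 h arrays were again the lowest, 1.85-fold below unstimulated with control siRNA. Orc6, the smallest subunit of the origin recognition complex, had 497 unstimulated, 571 with Stat5 siRNA and 538 with control siRNA at 30 min, and 338 with Stat5 siRNA and 433 with control siRNA at 2 h. Its fall past 1.5-fold was between 30 min and 2 h with Stat5 siRNA (-0.75), and its ratio with control siRNA was -0.31. Orc1 and Orc2 stayed under the floor on every array, with highest signals of 90.4 and 76.9.

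At 2 h over unstimulated cells 5 of the 6 MCM helicase genes had ratios below 0, with a median of -0.53. Of the subunits of the ring, Mcm2 and Mcm5 fell past 1.5-fold against unstimulated cells, and Mcm3, Mcm4 and Mcm7 had ratios of -0.54, -0.48 and -0.51. Mcm2 had a signal of 502 unstimulated, 580 with Stat5 siRNA and 471 with control siRNA at 30 min, and 342 with Stat5 siRNA and 308 with control siRNA at 2 h. For Mcm5 the signals were 1387 unstimulated, 1250 with Stat5 siRNA and 1415 with control siRNA at 30 min, and 868 with Stat5 siRNA and 905 with control siRNA at 2 h. In each of these genes both 2 h arrays were below the other 3.

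Mcm3 was read by 2 probe sets on U74A, which gave -0.54 and -0.55 for 2 h over unstimulated cells. The brighter one had 1163 unstimulated, 1203 with Stat5 siRNA and 1273 with control siRNA at 30 min, and 720 with Stat5 siRNA and 795 with control siRNA at 2 h. Mcm4 had 853 unstimulated, 859 with Stat5 siRNA and 918 with control siRNA at 30 min, and 651 with Stat5 siRNA and 612 with control siRNA at 2 h. Mcm7 had 986 unstimulated, 1024 with Stat5 siRNA and 931 with control siRNA at 30 min, and 575 with Stat5 siRNA and 693 with control siRNA at 2 h. The exception was Mcm6, read from a dim U74C probe set between 98.7 and 135, at a ratio of 0.01.

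**Figure D2:**
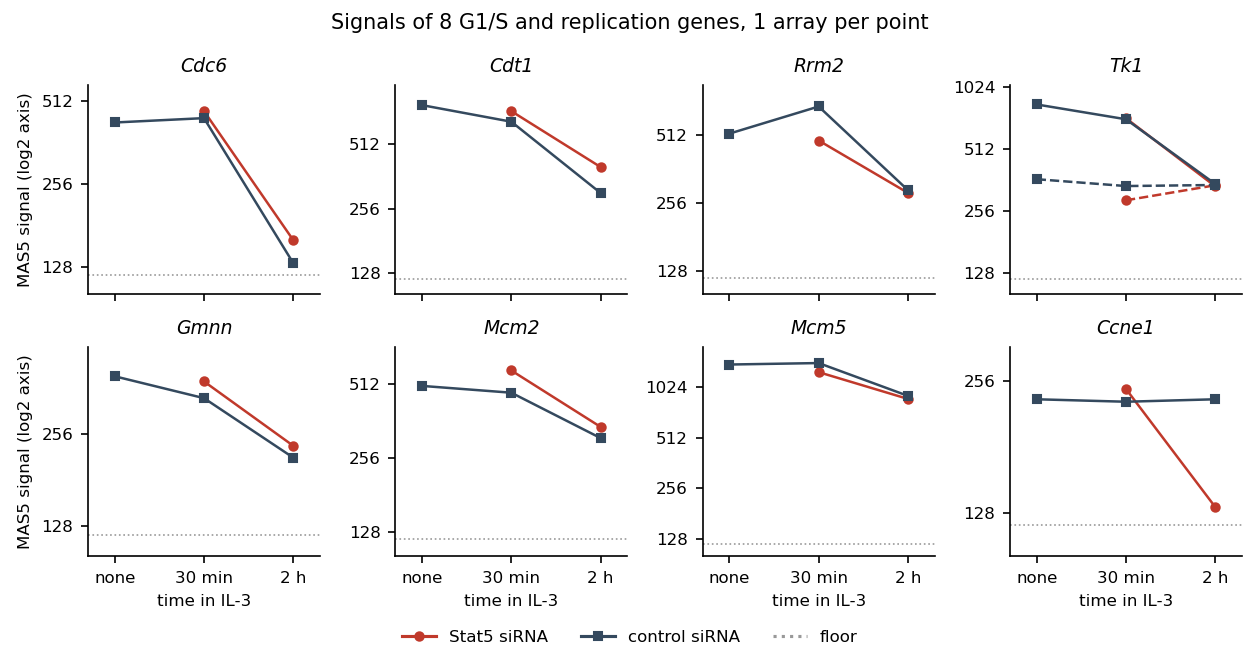
MAS5 signal (vertical log2 axis, a separate range in each panel) of 8 genes by time in IL-3, with Stat5 siRNA (red circles) and control siRNA (dark squares), 1 array per point. A dashed line is a second probe set, and the dotted line is the floor. In Cdc6, Cdt1, Gmnn, Mcm2 and Mcm5 the 2 h points of both arms lie below all earlier points, while Ccne1 is low at 132 on 1 array, Stat5 siRNA at 2 h.

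The factors that turn the loaded helicase into a fork were less well covered. Cdc45, which travels with the MCM ring, had a ratio of -0.39 at 2 h over unstimulated cells. Cdc7, the kinase that phosphorylates the ring, had 98.7 after 2 h with control siRNA, under the floor, against 177 unstimulated, and was at least 1.47-fold lower. The 2 used probe sets of Mcm10, a scaffold of the fork, gave -0.26 on U74A, where the 2 h signal was under the floor, and 0.20 on U74C. Dbf4, the partner of Cdc7, and the GINS subunit Gins2 stayed under the floor, with highest signals of 7.1 and 19.9.

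The 4 genes of polymerase alpha and primase had ratios between -0.60 and -0.30 at 2 h over unstimulated cells. Prim1, the catalytic primase subunit, fell, with 240 unstimulated, 254 with Stat5 siRNA and 220 with control siRNA at 30 min, and 197 with Stat5 siRNA and 158 with control siRNA at 2 h. Pola1, the catalytic subunit of polymerase alpha, had 318 unstimulated, 357 with Stat5 siRNA and 358 with control siRNA at 30 min, and 295 with Stat5 siRNA and 224 with control siRNA at 2 h. Pola2, its regulatory subunit, had 431 unstimulated, 463 with Stat5 siRNA and 562 with control siRNA at 30 min, and 315 with Stat5 siRNA and 349 with control siRNA at 2 h. Both Pola genes fell past 1.5-fold only when 2 h was set against 30 min in control siRNA cells (-0.67 for Pola1 and -0.68 for Pola2), and Prim2, the other primase subunit, had -0.33 over unstimulated cells.

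Of the clamp and its loader, Rfc1, the large subunit of RFC, fell, with 290 unstimulated, 305 with Stat5 siRNA and 333 with control siRNA at 30 min, and 169 with Stat5 siRNA and 192 with control siRNA at 2 h. Rfc4 had 269 unstimulated, 235 with Stat5 siRNA and 282 with control siRNA at 30 min, and 182 with Stat5 siRNA and 188 with control siRNA at 2 h. Pcna, the clamp itself and the brightest gene used here, had 2373 unstimulated, 2044 with Stat5 siRNA and 2046 with control siRNA at 30 min, and 1861 with Stat5 siRNA and 1682 with control siRNA at 2 h. The 5 measured genes of this role had ratios between -0.60 and -0.45 at 2 h over unstimulated cells, a narrow range that also holds Rfc2 and Rfc5, smaller subunits of the loader. Rfc3 missed the floor by little, with a highest signal of 119.

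Among single-strand binding and lagging-strand genes the RPA subunits fell and the flap nuclease and ligase did not pass 1.5-fold. Rpa1, the large DNA-binding subunit, had 1258 unstimulated, 1148 with Stat5 siRNA and 1202 with control siRNA at 30 min, and 862 with Stat5 siRNA and 837 with control siRNA at 2 h. Rpa2 had 500 unstimulated, 356 with Stat5 siRNA and 375 with control siRNA at 30 min, and 307 with Stat5 siRNA and 262 with control siRNA at 2 h, and was already lower at 30 min (-0.41). It was read from a U74C probe set of a kind that can cross-hybridise, and with the floor halved, where a dim U74A probe set took its place, the 2 h ratio was -0.31. Fen1, which trims Okazaki fragments, had -0.23 and Lig1, which joins them, -0.29.

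Nucleotide supply showed both a large change and a disagreement between probe sets. Rrm2, the regulated subunit of ribonucleotide reductase, had 518 unstimulated, 483 with Stat5 siRNA and 682 with control siRNA at 30 min, and 284 with Stat5 siRNA and 292 with control siRNA at 2 h. With control siRNA the 2 h signal was 2.34-fold lower than at 30 min and 1.77-fold lower than unstimulated. Rrm1, the other subunit, had a ratio of -0.57 over unstimulated cells. For Tk1, thymidine kinase, the U74A probe set had 846 unstimulated, 725 with Stat5 siRNA and 717 with control siRNA at 30 min, and 339 with Stat5 siRNA and 348 with control siRNA at 2 h, a log2 ratio of -1.28 over unstimulated cells, while a U74C probe set stayed between 290 and 367 and gave -0.09. The gene's value of -0.69 is the midpoint of the pair and describes neither. Tyms, thymidylate synthase, was under the floor on the 1 probe set that names it alone.

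Slbp, which binds the stem-loop of histone mRNAs in S phase, had 412 unstimulated, 456 with Stat5 siRNA and 441 with control siRNA at 30 min, and 353 with Stat5 siRNA and 282 with control siRNA at 2 h. Uhrf1, which guides DNA methylation to newly copied DNA, had 341 unstimulated, 268 with Stat5 siRNA and 300 with control siRNA at 30 min, and 286 with Stat5 siRNA and 227 with control siRNA at 2 h. For Slbp both 2 h arrays were the lowest, for Uhrf1 only the control siRNA one. Uhrf1 fell over unstimulated cells with control siRNA, and with Stat5 siRNA its ratio of 2 h over 30 min was 0.09.

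Among the G1/S kinase regulators and E2F factors no gene's value over unstimulated cells passed 1.5-fold once low signals were raised to the floor. At 2 h the 4 measured G1/S kinase regulators had a median of 0.03 and the 2 measured E2F genes one of -0.03, against -1.13 for licensing genes and -0.53 for the MCM genes. Ccne2, one of the E-type cyclins, had the highest ratio of all members, 0.57, with 359 at 2 h of control siRNA against 242 unstimulated, on a U74C probe set that can cross-hybridise. E2f3, an activating E2F, had 473 unstimulated, 546 with Stat5 siRNA and 515 with control siRNA at 30 min, and 626 with Stat5 siRNA and 609 with control siRNA at 2 h, and so was highest on both 2 h arrays without passing 1.5-fold. E2f2 was at least 1.34-fold lower, with 103 at 2 h of control siRNA, under the floor, against 161 unstimulated, so whether it passed 1.5-fold cannot be told, and E2f1 reached no more than 70.2 on any array. Cdk2, the partner of cyclin E, had -0.17. Cdc25a, the phosphatase that activates Cdk2, was measured in 3 of the 6 comparisons only, each time with a signal under the floor. Another Cdc25a probe set, which can cross-hybridise and was left out of the gene's value, gave 0.68 at 2 h over unstimulated cells.

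The fall from 30 min to 2 h can be read separately with each siRNA, since the Stat5 siRNA and control siRNA arms share no array. With Stat5 siRNA 10 of 35 members were 1.5-fold lower at 2 h than at 30 min (6.30% of all genes) and with control siRNA 13 of 37 (7.94% of all genes). None had risen in either arm, where 6.28% and 6.74% of all genes had. Among genes with a probe set on U74A the shares lower were 4.98% with Stat5 siRNA and 6.19% with control siRNA. Past 2-fold were Cdc6 with Stat5 siRNA (1.18% of all genes) and Cdc6, Cdt1 and Rrm2 with control siRNA (1.63%). The medians were -0.40 with Stat5 siRNA and -0.49 with control siRNA, against -0.02 for all genes in either arm. Of the 35 members measured in both arms 29 were below 0 in both (82.9%, against 36.9% of 7861 genes), 2 above 0 in both, Ccne2 and E2f3, and 4 of opposite sign, Ccne1, Cdk2, Fen1 and Uhrf1. Past 1.5-fold in both arms were 7 members, Cdc6, Cdt1, Gmnn, Mcm2, Mcm3, Rfc1 and Rrm2, which is 20.0% of them, where 3.23% of all genes did so. Across the 35 genes, which share the same arrays and are not independent, Pearson's r between the arms was 0.70 and Spearman's rho 0.53, and across all 7861 genes they were 0.62 and 0.53.

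**Figure D3:**
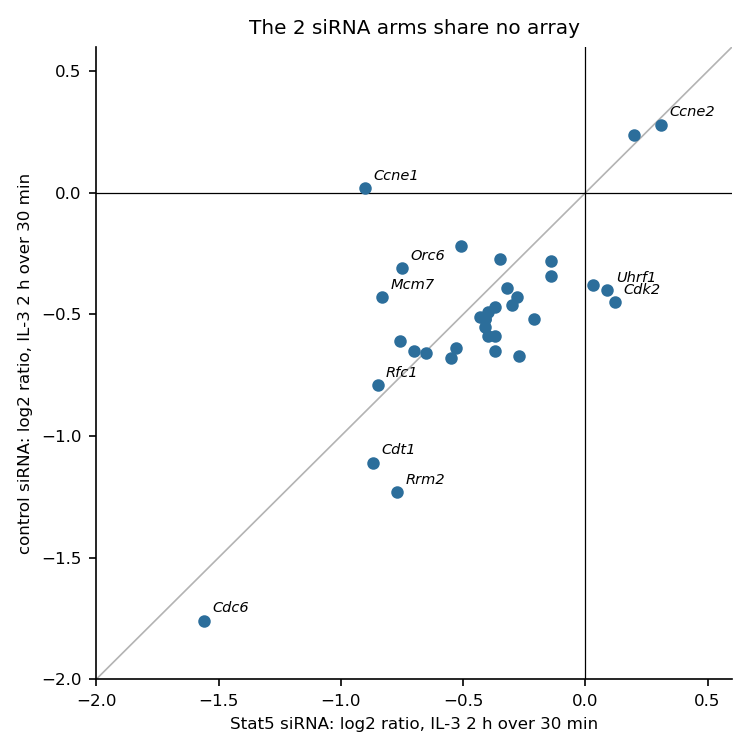
Log2 ratio of IL-3 at 2 h over 30 min for 35 genes with Stat5 siRNA (horizontal axis) and control siRNA (vertical axis), 1 point per gene, with the line of equal change in grey. Most points lie below 0 on both axes near the line, with Cdc6 at -1.56 and -1.76 furthest out, and Ccne1 stands apart at -0.90 and 0.02.

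Between Stat5 siRNA and control siRNA few members differed by 1.5-fold. At 30 min 0 of 35 members were 1.5-fold lower (2.31% of all genes) and 0 were higher (2.08%), with a median of -0.09 and a range of -0.50 to 0.30. At 2 h 1 of 36 was 1.5-fold lower (3.12% of all genes) and 0 were higher (3.35%), with a median of 0.01. These shares are at or under those of all genes. The change from 30 min to 2 h differed between the arms by a median of 0.12 (Stat5 siRNA minus control siRNA), against 0.01 for all genes. Above 0 were 26 of 35 members, where 4016 of 7861 genes were. By 1.5-fold or more 1 of 35 differed, where 10.2% of all genes did. Whether a smaller effect of the knockdown exists cannot be told from 1 array per condition, and part of each Stat5 mRNA remained.

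The 1 member past 1.5-fold was Ccne1, cyclin E1. Its U74A probe set had 233 unstimulated, 246 with Stat5 siRNA and 230 with control siRNA at 30 min, and 132 with Stat5 siRNA and 233 with control siRNA at 2 h. A single array, Stat5 siRNA at 2 h, was low and the other 4 lay between 230 and 246. A U74C probe set of Ccne1 that can cross-hybridise went the other way at 2 h, with 150 with Stat5 siRNA and 85.9 with control siRNA. Rrm2 was lowest of the members at 30 min (-0.50), and Cdk2, Cdt1 and Pola1 were highest at 2 h (0.43, 0.40 and 0.40).

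**Figure D4:**
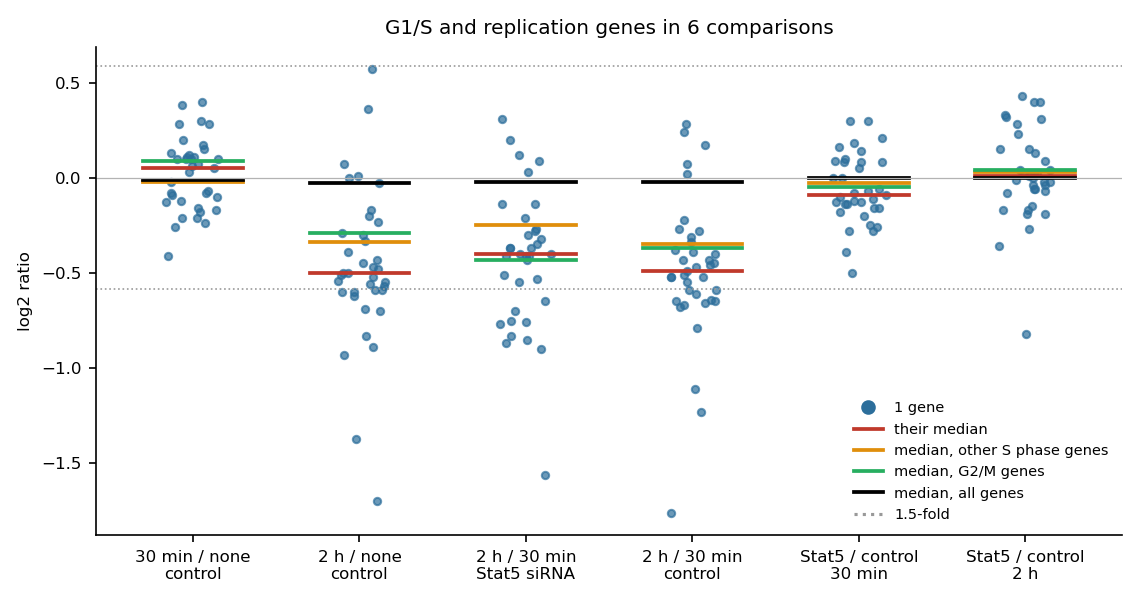
Log2 ratio (vertical axis) of every measured member in 6 comparisons, 1 point per gene, with horizontal bars for the medians of the members (red), other S phase genes (orange), G2/M genes (green) and all genes (black), and dotted lines at 1.5-fold. The 3 comparisons that end at 2 h of IL-3 and start earlier have member medians of -0.50, -0.40 and -0.49, while the other 3 lie between -0.09 and 0.05.

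Other genes of the S phase programme, a list of 71 of which 58 were measured at 2 h over unstimulated cells, were lower as well. Of the 58, 17 fell past 1.5-fold (29.3%, against 8.29% of all genes) and 0 rose (7.90% of all genes), with a median of -0.34. The largest ratios were those of E2f8, a repressor among the E2F factors (-1.91 against the floor), Fbxo5, the inhibitor of the anaphase-promoting complex also called Emi1 (-1.77), the chromatin remodeller Hells (-1.24), the fork protection factor Timeless (-0.95) and the cohesin subunit Smc3 (-0.94). Fbxo5 had a signal of 1749 unstimulated, 1317 with Stat5 siRNA and 1467 with control siRNA at 30 min, and 620 with Stat5 siRNA and 512 with control siRNA at 2 h. The E2f8 value is the midpoint of 2 probe sets at risk of cross-hybridisation, with 107 and 98.5 at 2 h of control siRNA, under the floor, against 625 and 322 unstimulated.

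From 30 min to 2 h 13 of 59 of these genes fell with Stat5 siRNA (22.0%, against 6.30% of all genes). With control siRNA 18 of 57 did (31.6%, against 7.94%). Those leading with Stat5 siRNA were E2f8 (-1.62), Smc3 (-1.16), Timeless (-1.14), Fbxo5 (-1.09) and Clspn (-0.91). Those leading with control siRNA were E2f8 (-1.82 against the floor), Fbxo5 (-1.52), Ticrr, which brings Cdc45 to origins (-1.21), Hells (-1.17) and Wdhd1 (-0.92 against the floor). With control siRNA 1 of the 57 rose, Dut, the dUTPase (0.61), where 6.74% of all genes did. Dut was also the 1 of 58 that fell at 30 min over unstimulated cells (-0.65, where 2.37% of all genes fell), so that its 30 min array was the low one. None of the list passed 1.5-fold between Stat5 siRNA and control siRNA at either time. Of all genes 2.31% were lower and 2.08% higher at 30 min, and 3.12% and 3.35% at 2 h.

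Genes of G2 and mitosis had lower signals at 2 h as well. Of 27 measured G2/M genes 26 had ratios below 0 over unstimulated cells, with a median of -0.29, and 5 fell past 1.5-fold (18.5%, against 8.29% of all genes): Ndc80 (-0.85), Cenpf (-0.76), Ttk (-0.68), Cenpe (-0.63) and Kif11 (-0.61). From 30 min to 2 h with Stat5 siRNA the median was -0.43, and 27 of 27 ratios were below 0, where 52.8% of all genes were. Past 1.5-fold were 2 of 27, Cenpe (-0.95) and Ndc80 (-0.89), a share of 7.41% that is near the 6.30% of all genes. With control siRNA 9 of 27 fell (33.3%, against 7.94% of all genes), with a median of -0.37, led by Ttk (-1.09), Bub1 (-0.90), Ndc80 (-0.89), Kif20a (-0.85) and Prc1 (-0.69). Ndc80, which ties chromosomes to the spindle, had a signal of 2895 unstimulated, 3158 with Stat5 siRNA and 2985 with control siRNA at 30 min, and 1699 with Stat5 siRNA and 1610 with control siRNA at 2 h.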

How the data were processed

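Per the series' design text and the submitters' processing notes, total RNA was hybridised to U74A, U74B and U74C arrays and the authors computed MAS5 signals. The deposited values are linear intensity values with a 2% trimmed mean of 150.04 to 150.10 on all 15 arrays, and each array was rescaled to the common mean. Detection calls and the authors' filters were not used here. In their place stood a floor of 119.9, the signal that 14553 of 36701 non-control probe sets reached on their highest array, a number taken from the design text. Arrays were assigned to conditions by title. Some source names are shorter and leave out the siRNA or the time.

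Probe sets were named from the platform annotation (29131 with 1 symbol, 724 with several, 6846 with none), and none was named from several symbols. Where a gene had several probe sets the median of their log2 ratios was taken. Those whose suffix (_f, _r, _i or _x) marks a risk of cross-hybridisation were kept back unless nothing else of the gene reached the floor. Calls were made at 1.5-fold and 2-fold, without a test, since each condition had 1 array per design. Members were described by counts and medians beside all genes measured. Named in full are members past 1.5-fold in any of 6 comparisons, and of the other lists up to 5 genes per comparison. Members, lists and thresholds were chosen with earlier results of these data known. The steps were tested on simulated data. Python 3.11.15, numpy 2.4.6, pandas 2.3.3 and scipy 1.17.1 were used.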

Additional observations from a re-analysis of the deposited data

Results flagged for a closer look

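Ccne1 was lower at 2 h than at 30 min with Stat5 siRNA and at nearly the same signal at both times with control siRNA. From 30 min to 2 h its log2 ratio was -0.90 with Stat5 siRNA and 0.02 with control siRNA, and in the same 4 arrays the ratio of Stat5 siRNA over control siRNA was -0.82 at 2 h and 0.10 at 30 min. The difference was not tested, and it rests on 1 probe set on 1 array.

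Signals above the floor were also present in 10 probe sets that the members' values leave out, 8 of a kind that can cross-hybridise and 2 named for both Tyms and Tyms-ps. For 2 h over unstimulated cells with control siRNA 8 of the 10 were below 0, with a median of -0.38. The ratios were -1.10 for Cdt1, -0.83 and -0.15 for the 2 Tyms probe sets, -0.61 for Tk1, -0.49 for Mcm5, -0.48 for Ccne1, -0.27 for Uhrf1, -0.24 for Mcm6, 0.35 for Cdc45 and 0.68 for Cdc25a. From 30 min to 2 h their median was -0.43 with control siRNA, with 8 below 0 and 2 above. With Stat5 siRNA it was 0.16, with 4 below 0 and 6 above. There the probe sets were split, from -1.29 for Cdc45, -0.90 for Cdt1 and -0.79 for Mcm6 to 0.63 for Cdc25a and 0.77 for Tk1. For Stat5 siRNA over control siRNA at 2 h 5 were below 0 and 5 above, with a median of 0.04. The left-out Tk1 probe set had 2389 with Stat5 siRNA and 1250 with control siRNA at 2 h, and the Cdc45 one 104 and 294.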

How the results depend on the processing

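The medians and counts were recomputed under 13 alternatives for each of 6 comparisons (other scalings and floors, signals not raised, other choices of probe set, fewer array designs), 1 of which, U74A only, was chosen after seeing the data. Of 312 values 304 stayed close to those reported, all medians among them. Close meant counts within 1.5 times, and medians within the SD of a single log2 ratio between probe sets of 1 gene on any design. That SD was 0.24 to 0.35 by comparison, a loose limit for a median of many genes. The median at 2 h over unstimulated cells ranged from -0.51 to -0.48, and between 8 (median scaling) and 14 members had fallen. From 30 min to 2 h the median ranged from -0.45 to -0.37 with Stat5 siRNA and from -0.53 to -0.46 with control siRNA. Counts that moved were small. With median scaling 1 member rose at 2 h over unstimulated cells, where 0 had. With the floor doubled, 1 was past 2-fold there in place of 2, 0 fell with Stat5 siRNA over control siRNA at 2 h in place of 1, and 0 were past 2-fold from 30 min to 2 h with Stat5 siRNA in place of 1. That last count was 2 when each gene was read from its brightest probe set, with U74A and U74B only and with U74A only. With cross-hybridising probe sets used like any other 1 member rose from 30 min to 2 h with Stat5 siRNA. Ccne1 then no longer passed 1.5-fold (-0.31 there, and -0.25 for Stat5 siRNA over control siRNA at 2 h). At 2 h the count of members lower with Stat5 siRNA was still 1 of 36, with another member in its place. The Cdc45 probe sets used in that setting gave 0.02 and -1.30 for that comparison. Of 464 values of single genes 23 no longer passed 1.5-fold and 0 changed sign. No paired analysis was possible because each condition had 1 array per design. The floor limits what can be said of dim genes, such as E2f1, Orc1 and Orc2, and scaling to a common mean hides any change in total mRNA.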
